A study of Homo sapiens with 4 samples.

Results

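A set of 9 of the 20136 protein-coding genes annotated on hg19 was followed in LNCaP cells: CHGA, CHGB, SYP, ENO2, INSM1 and SCG2, which serve as markers of neuroendocrine cells, and DDC, OPRK1 and BCHE, which are known as genes repressed by androgen. They were chosen by symbol, and every peak that touched a gene or the 50 kb on either side of it was taken. LNCaP cells are a human prostate cancer line that responds to androgen and came from a lymph node metastasis, and they have a luminal epithelial character. Chromatin immunoprecipitation followed by sequencing recovered the DNA held by nucleosomes acetylated at lysine 27 of histone H3 (H3K27Ac), a mark of active promoters and enhancers, or the DNA bound by TCF7L2, the transcription factor that takes β-catenin to Wnt target genes.

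H3K27Ac was measured in LNCaP cells at passage 20, held in charcoal-stripped serum, which is depleted of steroid hormones, and given either ethanol vehicle or 10 nM dihydrotestosterone (DHT), the potent natural androgen, for 4 h. TCF7L2 was measured at passage 15 in serum that was not stripped and without added DHT, given in the labels as 10% fetal bovine serum. Each of these 3 conditions had 1 library, so nothing is known of how much cultures vary, no difference was tested, and values stand side by side with 95% Poisson intervals that cover counting error only. The value of a peak is its height, the number of tags piled up at it, which no source used here gives as scaled to the number of reads. The number of reads per library is unknown. Direction is therefore also given against the median DHT to vehicle ratio of 1.07 over the 47574 peaks that paired 1 to 1 between both H3K27Ac lists.

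Neuroendocrine cells store peptides in dense-core granules. Chromogranins (CHGA, CHGB) and secretogranin II (SCG2) are proteins of that granule matrix, synaptophysin (SYP) is a membrane protein of small secretory vesicles, ENO2 is the neuronal form of the glycolytic enzyme enolase, and INSM1 is a zinc-finger transcription factor of neuroendocrine differentiation. In non-neuronal cells many such genes are held silent by REST, a repressor that binds a DNA element called RE1, and several of them carry a cAMP response element (CRE) close to the start. Prostate cancers under androgen deprivation can gain neuroendocrine features. DDC makes dopamine and serotonin from their amino acid precursors and also binds the androgen receptor, OPRK1 is the kappa opioid receptor, and BCHE is butyrylcholinesterase, a hydrolase of choline esters.

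The DNA at these genes is shown first, since the peaks are read against it. The stretches just before the most 5′ annotated start of CHGA and SCG2 are given because their promoters are among the 3 of the 9 that hold a full CRE (TGACGTCA), which is in capitals, and because H3K27Ac peaks covered neither promoter. In SCG2, CTTTGAA, one of the forms bound by TCF factors, is in capitals too. The sequences are from the GRCh37 (hg19) genome, 5′ to 3′ in the direction of transcription.
CHGA, chr14:93389345-93389494, plus strand: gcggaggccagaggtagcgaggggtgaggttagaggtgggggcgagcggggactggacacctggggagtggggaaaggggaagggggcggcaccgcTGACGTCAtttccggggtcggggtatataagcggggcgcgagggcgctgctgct
SCG2, chr2:224467080-224467289, minus strand: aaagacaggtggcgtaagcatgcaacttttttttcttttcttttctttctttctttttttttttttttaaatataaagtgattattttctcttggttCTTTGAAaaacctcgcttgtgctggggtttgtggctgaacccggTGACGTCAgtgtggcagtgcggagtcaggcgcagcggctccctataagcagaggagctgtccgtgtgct

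The CRE lay 54 bp before the start in CHGA and 69 bp before it in SCG2. A CRE was present in 3.04% of the 20123 promoter sequences that could be read, each from 1000 bp before to 100 bp after the most 5′ start and searched on both strands. A match is a run of letters and says nothing of a factor being bound.

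The RE1 form searched was CAGCACC, 2 free bases and GGACAG, with at most 2 mismatches. Among the 9 promoters only that of SYP held it, with 0 mismatches, 78 bp after the most 5′ start and just past the first coding exon, in the first intron. It is shown as the element of the REST repressor named above, in capitals.
SYP, chrX:49056571-49056609, minus strand: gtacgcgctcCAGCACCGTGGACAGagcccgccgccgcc

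This form was found in 6.84% of all promoters. The androgen response element form, AGAACA, 3 free bases and TGTTCT with at most 2 mismatches, was found in 5.01% of promoters and in 1 of the 9, that of SCG2, 593 bp before its start and with 2 mismatches. BCHE is shown next as the contrast to the granule genes: its promoter held the highest H3K27Ac peak over a most 5′ start of the 9 genes, yet it is poor in G and C, at 31.6% against a median of 52.5% over all genes. The promoter of the granule gene SCG2 was poor in them too, at 36.15%. None of the CRE, RE1 and androgen response element forms was in the BCHE promoter sequence. The stretch shown also lacks a TCF form, but the whole promoter held one, ATCAAAG, 737 bp before the start. The stretch does hold TGAATCA, a form bound by AP-1 factors, 77 bp before the start. That form is left in lower case because it was searched for only later. Such matches were common, with TCF forms in 44.7% of all promoters and the AP-1 form in 22.9%.
BCHE, chr3:165555251-165555350, minus strand: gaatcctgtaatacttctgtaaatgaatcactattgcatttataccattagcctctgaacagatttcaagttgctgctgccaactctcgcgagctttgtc

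Both TCF and AP-1 forms are marked in the next pair of sequences, which come from TCF7L2 peaks described further on, the tallest one near SCG2 and the one upstream of BCHE. Capitals mark the TCF forms (CTTTG and then AT, AA, TT or TA, on either strand) and TGANTCA, the form bound by AP-1 factors, which was added after these sequences had been seen.
SCG2, chr2:224414020-224414239, minus strand: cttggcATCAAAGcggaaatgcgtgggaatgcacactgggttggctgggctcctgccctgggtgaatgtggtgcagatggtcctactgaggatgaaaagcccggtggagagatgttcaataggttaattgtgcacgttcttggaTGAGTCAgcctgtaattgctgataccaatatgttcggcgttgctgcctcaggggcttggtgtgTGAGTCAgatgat
BCHE, chr3:165601840-165601969, minus strand: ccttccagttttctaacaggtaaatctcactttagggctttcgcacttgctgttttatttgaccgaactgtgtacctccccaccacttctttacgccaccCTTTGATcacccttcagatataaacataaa

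All 9 genes had at least 1 H3K27Ac peak within 50 kb with vehicle and with DHT, where 90.5% of all protein-coding genes did with vehicle and 91.1% with DHT. The promoter was covered in 3 of 9 genes in either list, SYP, DDC and BCHE, where 56.3% of all genes had such a peak with vehicle and 57.5% with DHT. A promoter is taken here as 1000 bp before to 100 bp after any annotated start. The acetylation around the granule genes thus lay elsewhere in the window, and in 7 of 9 genes the tallest vehicle peak lay outside the gene. In all, 51 of 57623 vehicle peaks, 46 of 60752 DHT peaks and 19 of 20955 TCF7L2 peaks lay around the 9 genes.

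**Figure D1:**
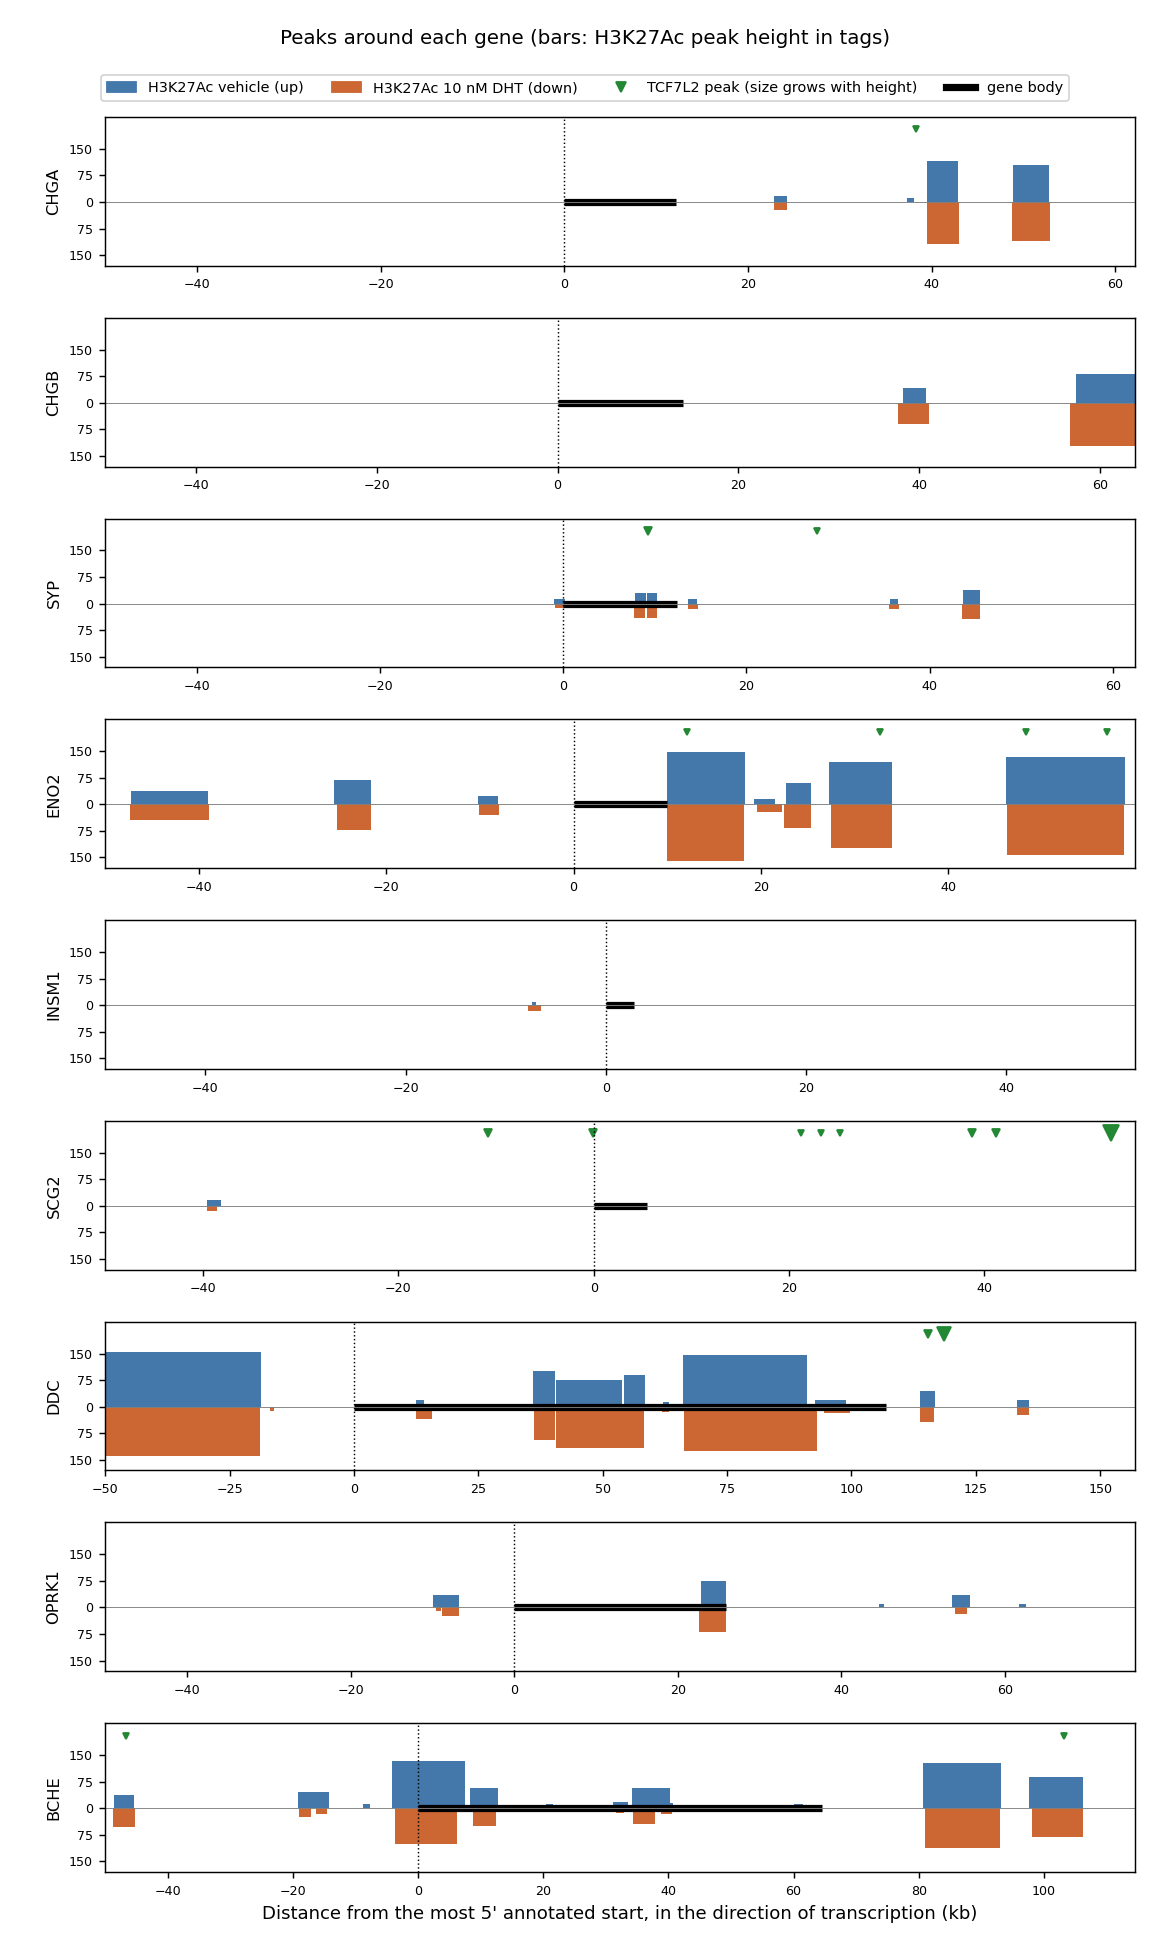
Peaks around each of the 9 genes, with the distance from the most 5′ annotated start in kb along the horizontal axis and H3K27Ac peak height in tags as bars, vehicle upward and DHT downward. Each bar spans its peak, cut at 50 kb from the gene, and has 1 height, triangles mark TCF7L2 peaks and the black bar the gene. Tall blocks stand beside CHGA, CHGB and ENO2 but not over their starts, while the start of BCHE lies under a peak of 134 tags with vehicle and 101 with DHT.

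Ordered by the tallest vehicle peak in the window, the genes ran from DDC (155 tags) over ENO2 (147), BCHE (134), CHGA (95.9 to 139 by its counting interval), CHGB (81), OPRK1 (75), SYP (37) and SCG2 (17) to INSM1 (9). The counting intervals of neighbours in this order overlapped, except between OPRK1 (59.0 to 94.0 tags) and SYP (26.1 to 51.0 tags). The 155 tags of DDC belong to a domain centred beyond its window, and its tallest peak inside the gene had 146 tags. For scale, peaks of the vehicle list ran from 9 to 212 tags with a median of 22, so the single peak near INSM1 had the lowest height listed. Peaks of the DHT list ran from 10 to 213 tags. The 8 genes other than BCHE had their tallest peak at the same place in both lists.

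CHGA (chr14:93389495-93401630, plus strand) had no peak over the gene in either list. Its nearest H3K27Ac peak began 14.3 kb past the closest annotated start, and all its peaks lay in introns of the neighbouring gene ITPK1, an inositol phosphate kinase. The tallest had 120 tags (99.5 to 144) with DHT and 95.9 to 139 tags by its counting interval with vehicle, a ratio of 1.03 (0.795 to 1.35). The second had 104 tags with vehicle against 111 with DHT. Both conditions thus gave nearly the same heights at CHGA, with intervals that include 1, and the summed heights were 248 and 253 tags. A peak of 10 tags was listed with vehicle only.

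CHGB (chr20:5892156-5905999, plus strand) also had no peak over the gene. Its nearest, at the start of the DNA helicase gene MCM8, had 43 tags with vehicle and 60 with DHT. The tallest, in an intron of MCM8 and about 53 kb away, had 81 tags (64.3 to 101) with vehicle and 121 tags (100.4 to 145) with DHT, a ratio of 1.49 (1.12 to 2.0). Both peaks at CHGB were taller with DHT, and the ratio of the taller was still 1.39 after division by the median ratio of all pairs. That DHT peak met 2 vehicle peaks, of 81 and 11 tags, so it is no 1 to 1 pair.

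SCG2 (chr2:224461658-224467079, minus strand) had 1 H3K27Ac peak in its window, 38.2 kb upstream, with 17 tags (9.90 to 27.2) with vehicle and 14 (7.65 to 23.5) with DHT. Neither list had one at its promoter. SCG2 was the gene with most TCF7L2 peaks, 8 of the 19, given below.

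SYP (chrX:49044268-49056677, minus strand) was the 1 neuroendocrine marker among the 6 with a peak over its promoter, a low one of 13 tags in either condition. It covered the most 5′ start, and with vehicle also the RE1 match printed above. With DHT the edge of the peak, at position 49056600, lay directly beside that match, which ends at 49056599. Inside the gene lay a pair of peaks, one of 30 tags with vehicle and 40 with DHT, the other of 31 and 40. The tallest in the window, 38.0 kb from the closest start and in no gene, had 37 and 43 tags. Of the 6 peak pairs at SYP, 5 were taller with DHT and 1 was equal, with a median ratio of 1.21, and each interval included 1.

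ENO2 (chr12:7022909-7032861, plus strand) lies among densely acetylated genes, yet neither list had a peak over any of its 14 annotated starts or over the gene body. The nearest and tallest began 1.78 kb from the closest start, at a promoter of its downstream neighbour ATN1, with 147 tags with vehicle and 160 with DHT, a ratio of 1.09 (0.865 to 1.37). The peak at the promoters of PHB2 and EMG1 followed with 135 and 144 tags, and that at C12orf57 and PTPN6 with 119 and 123. All 8 pairs at ENO2 were taller with DHT, by ratios from 1.03 to 1.38 with a median of 1.10, near that of all pairs.

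INSM1 (chr20:20348748-20351593, plus strand) had 1 peak, 7.10 kb upstream, with 9 tags (4.12 to 17.1) with vehicle and 16 (9.15 to 26.0) with DHT. Its ratio of 1.78 (0.740 to 4.56) rests on few tags. The DHT list holds no peak under 10 tags, so any DHT peak listed at this place had to be taller than 9. The peak was also wider with DHT, at 1.26 kb against 0.269 kb. INSM1 was the 1 gene of the 9 past 1.5-fold, where 8.68% of the 18028 genes with a peak in both lists had a tallest peak at least 1.5-fold taller with DHT. No gene of the 9 was that much taller with vehicle, where 1.95% of genes were.

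DDC (chr7:50526134-50633102, minus strand), the longest gene of the 9, had 11 peaks in either list that together covered 92.7 kb of its window with vehicle and 96.1 kb with DHT. The tallest, 155 tags with vehicle and 140 with DHT, was a domain 147 kb wide with vehicle and 109.8 kb wide with DHT over GRB10, a growth factor receptor adaptor that is itself known to be repressed by androgen. The vehicle domain met 2 DHT peaks, of 140 and 91 tags, so the 109.8 kb is the width of only 1 of them. The centre of this domain lay beyond the 50 kb window in both lists, so its height may belong to DNA outside the window. Within DDC the tallest peak, 25.02 kb wide with vehicle, had 146 and 124 tags and lay over an internal annotated start, while no peak covered the most 5′ starts. The internal start is what counts DDC among the genes with a promoter peak. Of its 5 pairs, 3 were taller with DHT and 2 with vehicle. One intronic peak stood at 18 tags with vehicle and at 34 with DHT, a ratio of 1.89 (1.04 to 3.55), and DDC also held the 1 DHT peak around the 9 genes that met no vehicle peak, at 12 tags.

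OPRK1, on chromosome 8, had no peak over a start. Its tallest lay over the 3′ end of the gene with 75 tags with vehicle and 70 with DHT, a ratio of 0.933 (0.664 to 1.31). Beyond its 3′ end a peak stood at 35 tags with vehicle and at 19 with DHT, a ratio of 0.543 (0.293 to 0.975). An upstream peak of 35 tags with vehicle was met by separate peaks of 25 and 10 tags with DHT. With vehicle it also had peaks of 9 and 10 tags that met none with DHT. At OPRK1 each H3K27Ac peak with a partner was thus lower with DHT, and only the interval of the downstream peak lay below 1.

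BCHE (chr3:165490692-165555250, minus strand) was the 1 gene whose own most 5′ start lay under a tall peak. It stood at 134 tags (112 to 159) with vehicle and at 101 with DHT, a ratio of 0.754 (0.576 to 0.983), and measured 11.6 kb and 9.81 kb. Downstream of the gene, peaks of 128 and 87 tags with vehicle had 112 and 80 with DHT, and intronic peaks of 57 and 18 tags had 50 and 13. Of its 6 pairs, 5 were lower with DHT and the median ratio was 0.876. The exception was the peak farthest upstream, with 38 tags with vehicle and 54 with DHT, a ratio of 1.42 (0.921 to 2.21), which holds the TCF7L2 peak whose sequence is printed above. BCHE also had 4 of the 7 vehicle peaks that met no DHT peak, at 9, 11, 12 and 13 tags. All were near the lowest height listed, which was 9 tags with vehicle and 10 with DHT.

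**Figure D2:**
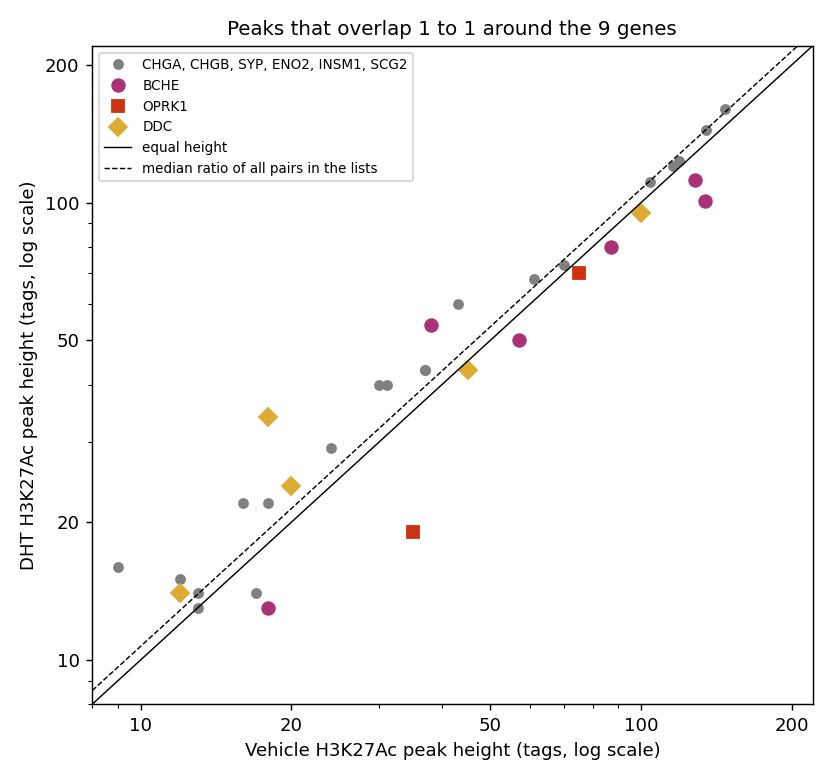
Height with vehicle (horizontal) and with DHT (vertical), in tags on log axes, of the 33 H3K27Ac peak pairs that overlapped 1 to 1 around the 9 genes. Each point is 1 pair, the solid line marks equal height and the dashed line the median ratio of all 47574 pairs. BCHE and OPRK1 points lie below the solid line, except for the BCHE pair of 38 and 54 tags. Most points of the neuroendocrine markers lie on or above it, and among these markers only SYP has peaks over the gene itself.

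Over the 33 pairs of all 9 genes, 22 were taller with DHT, 10 with vehicle and 1 was equal, where 56.7% of all pairs were taller with DHT and 37.6% with vehicle. Of the 10 that were taller with vehicle, 7 were at BCHE and OPRK1, 2 at DDC and 1 at SCG2, and none of the pairs at CHGA, CHGB, SYP, ENO2 and INSM1 was. Of these last genes only SYP had pairs over the gene itself, and all their other pairs lay outside the gene, many in neighbouring genes. The direction of the INSM1 pair was set by the lowest heights listed. The median ratio of the 33 pairs was 1.08, beside 1.07 over all pairs. The counting interval lay below 1 for 2 of the 33, at OPRK1 and at the BCHE promoter, where it did for 2.69% of all pairs, and above 1 for 1, at DDC, where it did for 9.16%. The ratio moved with height over all pairs, from a median of 1.22 at vehicle heights of 9 to under 15 tags to 0.978 at 120 tags or more, so low and tall peaks are read against different medians. At heights of 120 tags or more, 10% of pairs had a ratio under 0.807, and the BCHE promoter, at 0.754, was among these.

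By the tallest peak in the window, 5 of the 9 genes were taller with DHT and 4 with vehicle. Over all genes, at any height, 70.7% were taller with DHT and 26.5% with vehicle. The share of all pairs taller with DHT varied with vehicle height. It was 72.5% at 9 to under 15 tags (INSM1) and 38.6% at 120 tags or more (DDC, ENO2, BCHE). At 60 to under 120 tags (CHGA, CHGB, OPRK1) it was 52.05%, with a median ratio of 1.015, under the 1.034 of CHGA. The 5 genes taller with DHT were all neuroendocrine markers, CHGA, CHGB, SYP, ENO2 and INSM1. In each of these 5 the tallest peak lay outside the gene. The direction at INSM1 was set by the lowest heights listed, 9 tags with vehicle and 10 with DHT. After division by the median ratio of all pairs CHGA fell to 0.966 and the others stayed above 1. The ratio of tallest peaks had a median of 1.10 over the 18028 genes, above the 1.09 of ENO2, the 1.03 of CHGA and the 1.03 that was the median of the 9. The 4 were SCG2 and the androgen-repressed DDC, OPRK1 and BCHE. The ratios of these 4 were 0.824, 0.903, 0.933 and 0.836, and all their intervals included 1. That of BCHE sets its promoter peak with vehicle against a peak downstream of the gene with DHT. At the BCHE promoter peak alone the ratio was 0.754 (0.576 to 0.983). The DDC ratio is that of the domain over GRB10. Ranked within the 25000 tallest peaks of each list, the CHGB peak moved up by 2777.5 places with DHT, SYP by 733.5 and ENO2 by 97.5. CHGA, taller by count, changed rank by -151.5 places. OPRK1 changed by -2142.5 places and DDC, by the domain over GRB10, by -332, both toward the lower ranks. At BCHE the tallest peak differed between the lists, ranking 460.5 with vehicle and 1657 with DHT. The BCHE promoter peak itself ranked 460.5 with vehicle and 2465.5 with DHT. The peaks near INSM1 and SCG2 were not among the 25000.

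The length of DNA under H3K27Ac peaks gave a similar picture of BCHE and OPRK1. In BCHE's window it was 58.4 kb with vehicle and 47.3 kb with DHT, and in OPRK1's 9.84 kb and 7.32 kb. Less acetylated length with DHT was found for 4 of the 9 genes, these 2, SCG2 and CHGA, where 35.0% of all genes had less. The ratio of lengths was 0.811 at BCHE, 0.744 at OPRK1 and 0.766 at SCG2, beside a median of 1.05 over all genes with a 10th percentile of 0.860. A lower sum of heights with DHT was found for 4 of 9 genes, SCG2, DDC, OPRK1 and BCHE, where 25.7% of all genes had one. BCHE had 625 tags in sum with vehicle and 513 with DHT, OPRK1 164 and 124, and DDC 687 and 632. The DDC sums include the full height of the domain over GRB10, which is centred beyond the window.

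**Figure D3:**
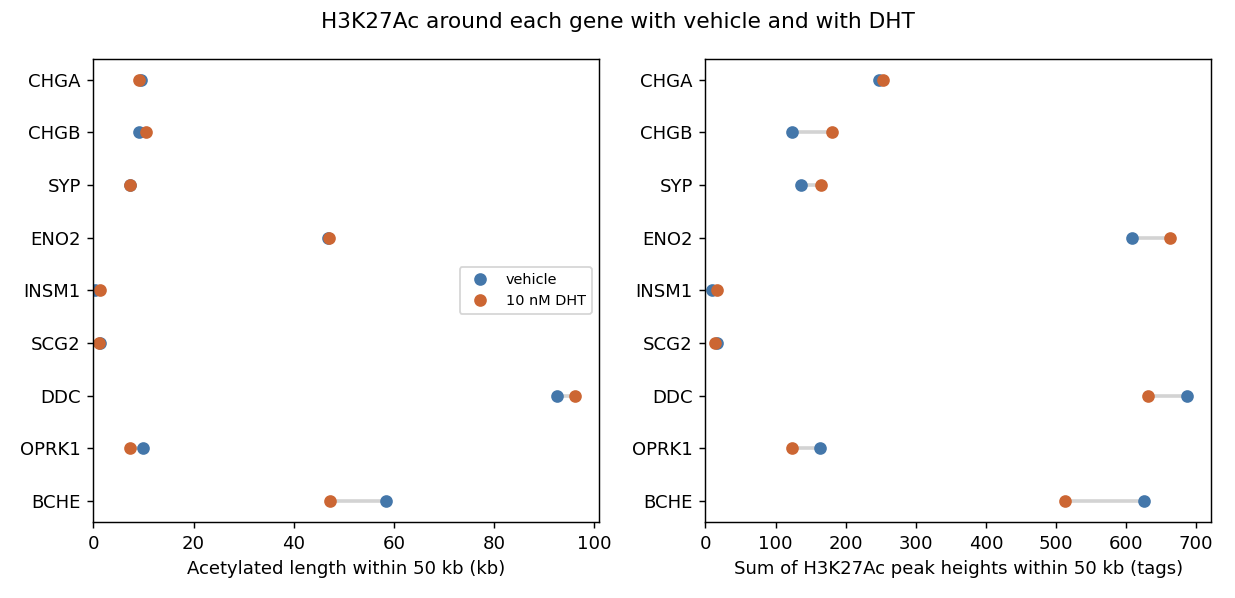
For each of the 9 genes, the length under H3K27Ac peaks within 50 kb in kb (left) and the sum of the peaks' heights in tags (right), with 1 point for vehicle and 1 for DHT from 1 library each. At BCHE the length was 58.4 kb with vehicle and 47.3 kb with DHT, and the sum 625 and 513 tags, while at CHGB the sum was 124 and 181 tags.

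Of the 51 vehicle peaks around the 9 genes, 7 met no DHT peak, which is the case for 11.8% of all vehicle peaks. These 7 were at BCHE, OPRK1 and CHGA and had 9 to 13 tags. Since the DHT list began at 10 tags, a peak of 9 tags could be listed only with vehicle. Of the 46 DHT peaks, 1 met no vehicle peak, where 17.1% of all DHT peaks did not. Every H3K27Ac peak of the 9 genes above 13 tags thus had a counterpart in the other condition.

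TCF7L2 peaks lay within 50 kb of 6 of the 9 genes, where 66.8% of all genes had one, and none lay around CHGB, INSM1 or OPRK1. The promoter was covered in 1 gene, SCG2, where 20.2% of all genes had a TCF7L2 peak over a promoter. Its height was 44 tags (rank 6918.5 of 20955 by height) and holds the CTTTGAA and the CRE of the first SCG2 sequence. The 7 other TCF7L2 peaks near SCG2 had 219, 57, 44, 43, 34, 21 and 16 tags. The tallest, between genes and 52.5 kb past the start, ranked 60 in the whole list, and none of the 8 overlapped an H3K27Ac peak of either condition.

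At the other genes the TCF7L2 peaks were fewer. DDC had one of 181 tags (rank 366.5) in an exon of the neighbouring gene FIGNL1 and without an H3K27Ac peak, and one of 45 tags at the FIGNL1 promoter, which was acetylated. In SYP a peak of 62 tags lay over an exon of the 3′ part of the gene, overlapping the intragenic H3K27Ac peak of 30 tags with vehicle and 40 with DHT. The 4 at ENO2, at 18 to 27 tags, and the 2 at BCHE, at 21 and 32, all overlapped H3K27Ac peaks, and the 1 at CHGA, at 30 tags, did not. In all, 8 of 19 overlapped H3K27Ac, where 34.5% of all TCF7L2 peaks did. The cells for TCF7L2 were grown in another serum than those for H3K27Ac, so overlap sets positions side by side from different cultures.

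**Figure D4:**
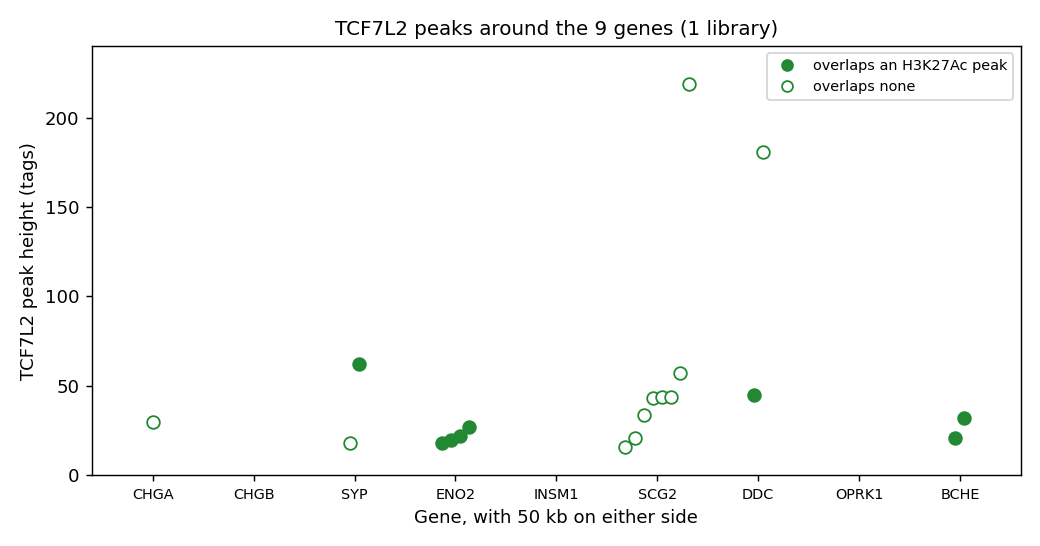
Height in tags of the 19 TCF7L2 peaks within 50 kb of the 9 genes, 1 point per peak from 1 library. Filled points overlapped an H3K27Ac peak of either condition. The 8 points of SCG2, up to 219 tags, and the DDC point at 181 tags are open, and CHGB, INSM1 and OPRK1 have none.

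In the middle 201 bp, 10 of the 19 TCF7L2 peaks held a TCF form, where 35.0% of all TCF7L2 peaks did, and 10 held TGANTCA, where 41.1% did. The tall peak near SCG2 held TGAGTCA at 2 places in that middle stretch, and its only TCF form in the stretch printed lies outside it. The 181-tag peak near DDC held 1 match of either kind, CTTTGAT and TGAGTCA. The peak upstream of BCHE also held both, CTTTGAT and, outside the stretch printed, TGAATCA, and the other near BCHE held CTTTGAT. Across the 19, 16 held at least 1 match of either kind, where 62.8% of all peaks did. TGANTCA was added after sequences of these peaks had been seen, and the counts include those peaks, so its shares are a description only.

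Gene lists with a known relation to neuroendocrine differentiation or to androgen, and the genes of the REST complex, were set beside the 9. Of 30 other neuroendocrine genes, 3 had an H3K27Ac peak over the promoter. These were, vehicle first, CPE with 12 tags in either condition, UCHL1 with 13 and 25, and ONECUT2 with 53 and 14. The fall at ONECUT2 concerns its promoter alone. Anywhere within 50 kb of this gene, the maximum was 53 tags without DHT but 55 under it, a ratio of 1.04. Of the 18 other neuroendocrine genes with a peak in both lists, 13 were taller with DHT and 4 with vehicle, at a median ratio of 1.07. The lowest ratios were at SCG3 (0.784), a granule protein, and PCSK2 (0.871), a prohormone convertase, and the highest at ELAVL4 (2.17), a neuronal RNA-binding protein, and STX1A (1.94), a protein of vesicle fusion. Luminal prostate markers had a promoter peak in 9 of 9 genes with vehicle, basal markers in 0 of 3, leukocyte markers in 0 of 3 and stroma markers in 2 of 4, VIM with 31 tags and COL1A1 with 34.

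**Figure D5:**
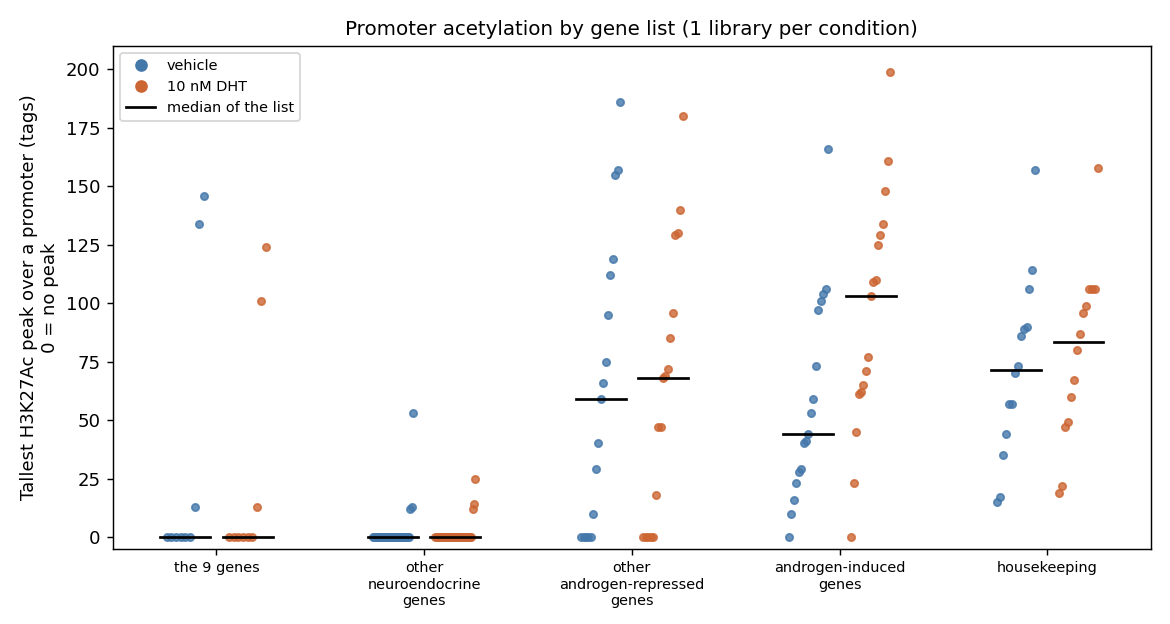
For each gene of 5 lists, the tallest H3K27Ac peak over a promoter, in tags (0 where none is listed), with vehicle and with DHT and 1 point per gene, the bar being the median. The medians of the 9 genes and of the other neuroendocrine genes are at 0, those of other androgen-repressed genes at 59 and 68 tags and those of androgen-induced genes at 44 and 103 tags.

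Of 17 other androgen-repressed genes, 12 had a promoter peak, with a median of 59 tags with vehicle and 68 with DHT. Of the 16 with a peak in both lists, 9 were taller with vehicle and 7 with DHT, at a median ratio of 0.980, from CCN3 (0.818), a matricellular protein, and UGT2B15 (0.828), which inactivates androgen by glucuronidation, to UGT2B28 (1.36) and UGT2B11 (1.39) of the same enzyme family. GRB10 is in this list and shares its peak with DDC. Of 17 androgen-induced genes, 16 were taller with DHT, 9 of them at least 1.5-fold, at a median ratio of 1.84. KLK2, KLK3 and KLK4, 3 of these 9 and neighbours on chromosome 19, had the same tallest heights, 97 tags with vehicle and 180 with DHT. In this list PMEPA1 (2.57), an inhibitor of TGF-β signalling, was among the highest, and SLC45A3 (0.988) and ACSL3 (1.10) were lowest. The ratios of DDC, OPRK1 and BCHE, 0.836 to 0.933, lay in the range of the other androgen-repressed genes. They also lay in that of the housekeeping genes (0.744 to 1.40), so the range does not set them apart. The DDC ratio is that of the GRB10 peak itself.

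The REST gene itself had a promoter peak of 39 tags with vehicle and 41 with DHT. Of 10 genes of the REST complex, 9 had a promoter peak in either list, with a median ratio of tallest heights of 1.06, from HDAC2 (0.813) and RCOR2 (0.876), a deacetylase and a corepressor, to SIN3B (1.32), a scaffold, and KDM1A (1.89), a histone demethylase. Of 14 housekeeping genes all had promoter peaks, with a median ratio of 1.09, from GUSB (0.744) and PGK1 (0.930) to HPRT1 (1.35) and TFRC (1.40). The median of the 9 genes, 1.03, lay between that of the other androgen-repressed genes and these.

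For each of the 9, the gene over 200 kb away with the most similar 3 tallest heights was found by distance on the log2(height + 1) scale across the 3 lists. CHGA was closest to NDC80, which had 122 tags with DHT, 30 with TCF7L2 and the same height as CHGA with vehicle. In the order vehicle, DHT and TCF7L2, CHGB was closest to NRBF2 (79, 118 and 0 tags), SYP to ETDC (38, 43 and 62), ENO2 to GLYATL1 (143, 163 and 27), OPRK1 to THEMIS (76, 70 and 0), DDC to WDR70 (146, 144 and 181) and BCHE to PKHD1L1 (141, 112 and 32). INSM1 shared its 9, 16 and 0 tags with CMTM5, 1 of 3 genes with these values. SCG2 had no near match, the closest being PABIR3 with 15, 12 and 200 tags at a distance of 0.298. With 3 lists of 1 library each, this is a description of heights only.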

How the data were processed

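ChIP-seq peak lists of LNCaP cells were used, H3K27Ac with vehicle, H3K27Ac with 10 nM DHT and TCF7L2, with 1 library each. The paper's methods give Bowtie 2 for the H3K27Ac reads and ELAND for the TCF7L2 reads, while the submitters' processing notes name CASAVA 1.8.2, Bowtie2 and BWA for all libraries, with hg19. The authors called peaks per library with Sole-search, with a stricter false discovery rate for H3K27Ac, and deposited for each peak a signal, its height in whole tags. Neither the serum of the TCF7L2 cells (the labels and the paper give different shares) nor the aligner could be settled. The input library has no peak list here and was not analysed here. Read depth is unknown.

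From these lists, overlaps of at least 1 bp with genes and the 50 kb around them were counted, with genes and starts from GENCODE release 44 lifted to GRCh37. Widths are ends minus starts, ranks are by height with ties at their mean, heights carry exact Poisson intervals and ratios the exact 95% binomial interval of the 2 counts. Peaks that overlapped exactly 1 peak of the other list, in both directions, formed pairs. Groups followed the labels, and no test was made with 1 library per condition. The 9 genes, the gene lists and the comparisons were chosen with earlier results of these data known. The genes named are the 9, those under their tallest peaks, the 2 highest and 2 lowest ratios of each list and the closest gene of each. Some items this rule names are not reported here. REST, the promoter-marked neuroendocrine genes and other neighbours were named after their values were seen. Motif searches took both strands. Overlap and motif code was tested on simulated peaks against bedtools 2.31.1. Python 3.11.15, numpy 2.4.6, scipy 1.17.1, pyfaidx 0.9.0.4, matplotlib 3.10.9 and samtools 1.23.1 were used. Alternatives covered the window, the promoter, the peaks taken, the overlap, the scale of heights and the mismatches.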

Additional observations from a re-analysis of the deposited data

How the results depend on the processing

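The counts of genes with a peak in the window or over the promoter stayed within 1.5 times under all alternatives run. With 10 kb on each side in place of 50 kb, 3 genes in place of 5 were taller with DHT, 4 vehicle peaks in place of 7 and 0 DHT peaks in place of 1 met no peak of the other condition, and 3 TCF7L2 peaks in place of 8 met H3K27Ac. Among the 25000 tallest peaks, 0 vehicle and 0 DHT peaks met none, and 3 genes ranked higher with DHT, and 4 of the 15000 tallest TCF7L2 peaks met H3K27Ac. With 100 kb, 2 genes in place of 1 passed 1.5-fold, and with an overlap of 50% of a peak's length required, 2 DHT peaks met none. With 3 mismatches allowed, 4 promoters in place of 1 held the RE1 form, as did 43.97% of all promoters. The median log2 ratio of the 9 tallest heights, 0.049, turned to -0.051 when heights were divided by the median ratio of all pairs, which moved CHGA below 1. The 1.5-fold count and this median were not run on ranks. Of 54 tallest heights recomputed with other windows, 11 moved beyond their counting interval, 10 of them with 10 kb, where CHGA, CHGB and SCG2 had no H3K27Ac peak. No paired analysis was possible because each condition had 1 library. Without replicates or read numbers, no difference between the conditions, of any size, could be told from variation between cultures or libraries. Counting error alone spans ratios of about 0.80 to 1.35 for a pair like the tallest at CHGA.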
